A study of Saccharomyces cerevisiae with 16 samples.

Results

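The comparison asks what changed in gene expression when HTZ1 was deleted in budding yeast that already lacked SET1. It sets the 4 arrays labelled set1htz1 against the 4 arrays labelled set1, which are 8 of the 16 arrays in the series, and nothing measured on the arrays was used to choose them. The series measured mRNA from mutants of Saccharomyces cerevisiae on spotted 2-colour arrays of open reading frames, and its other 8 arrays carry the triple mutant set1htz1sir2 and the histone mutant H3K4A. Each array held cDNA of a mutant culture and of a wild-type culture grown beside it, so every value is a log2 ratio of mutant over wild type, and the comparison is a difference of such ratios.

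Both groups lack SET1, so the deletion common to them cancels in the difference, and what distinguishes them by name is loss of HTZ1. Cultures of both grew exponentially in liquid YPD supplemented with tryptophan and adenine and were harvested at an OD600 of 0.7, and mRNA was purified from them. The 4 arrays of a group are described as independent biological replicates with the dyes exchanged: Cy5 marked the mutant on arrays 1 and 3, and Cy3 marked it on arrays 2 and 4. The series has no strain that lacks HTZ1 alone, so an effect of losing HTZ1 cannot be told apart from one that needs the loss of SET1 as well. No label or description used here gives the mating type, the marker genotypes or the number of clones behind each strain. Differences that come with the strains cannot be told apart from the loss of HTZ1.

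Set1 is the catalytic subunit of COMPASS, the complex that methylates lysine 4 of histone H3, a mark of the start of transcribed genes. HTZ1 encodes H2A.Z, a variant of histone H2A that the SWR1 complex places in nucleosomes beside promoters. In yeast H2A.Z is known for its part in the induction of genes from a repressed state, the phosphatase gene PHO5 and the galactose genes among them, and for keeping silent chromatin from spreading away from telomeres and the silent mating loci.

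The deleted genes were measured first. HTZ1 read 0.45, 0.41, 0.04 and 0.48 on the set1 arrays 1 to 4 and -2.84, -2.74, -2.84 and -3.32 on the set1htz1 arrays. All 4 set1htz1 arrays lay far below all 4 set1 arrays, and the difference was -3.28 ± 0.16 (standard error of the limma fit, adjusted p = 5.84e-09), which is 9.71-fold. SET1 read -2.06, -2.94, -2.94 and -2.74 in set1 and -2.74, -1.74, -2.25 and -2.64 in set1htz1. Those arrays overlap, SET1 was low on every one of them, and the difference of 0.33 ± 0.22 was not called (adjusted p = 0.316). The direction of the ratios follows from the same values, since both genes are low in both dye orientations where the labels place their deletions. Probe positions within HTZ1 and SET1 were not known here, so a low ratio does not show how much of a gene is missing.

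The set1 arrays carry a large dye effect that bears on every result here. Arrays of set1 correlated at 0.795 and 0.734 with the array of the same dye, but between -0.261 and 0.0956 across dyes, over all genes. For set1htz1 the same correlations were 0.857 and 0.802 within a dye and 0.660 to 0.824 across dyes. The fit therefore holds a dye term for each gene, shared by the groups, and the standard errors carry what that term leaves. The dye effect differed between set1 and set1htz1 for 293 of the 5477 genes tested, so differences of called genes are also given by dye orientation where one is at least 2 times the other. Array medians lay between -0.04 and 0.00 and 5385 to 5798 table entries per array had a value. The number of arrays limits the precision. The p-values rest on a spread between arrays that is pooled over all 16 arrays of the series. That spread holds differences between cultures, noise of the arrays and dye effects that the shared term leaves.

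Loss of HTZ1 on top of SET1 went with many changes of moderate size, in both directions and in similar numbers. Of 5477 genes tested, 483 were higher in set1htz1 (8.82%) and 542 were lower (9.90%), at a limma adjusted p under 0.05. Together these are 1025 genes, or 18.7% of those tested, and 1775 genes had an unadjusted p under 0.05. The higher genes had a median difference of 0.66 and the lower genes one of -0.57. Changes of at least 2-fold were found for 70 higher and 24 lower genes, and of at least 4-fold for 6 and 2. Smaller changes were common among the calls, since 171 higher and 294 lower genes differed by under 1.5-fold. The typical higher gene stood near wild type in set1, at a median log2 ratio of -0.02, and at 0.65 in set1htz1. The typical lower gene went from 0.03 to -0.57. Without set1htz1 array 3 there were 670 calls, 315 higher and 355 lower, the only array whose omission moved the count by more than 1.5 times. List counts given below without an array come from such fits, whose totals differ from those behind the shares of 8.82% and 9.90%.

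**Figure D1:**
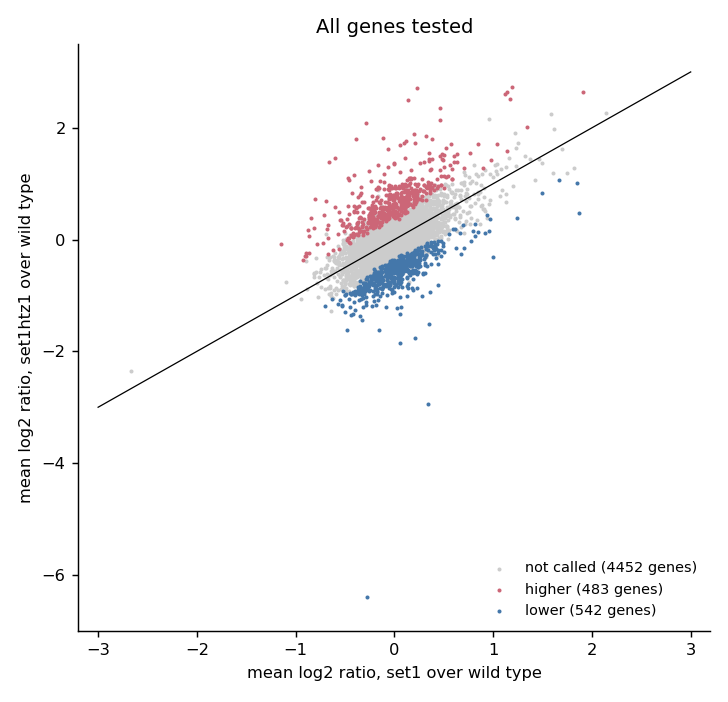
Mean log2 ratio over wild type of every gene tested in set1 (horizontal) and in set1htz1 (vertical), with the line of equality. The 483 genes called higher lie above the line and the 542 called lower lie below it; most called genes are near 0 in set1, and MET17 and HTZ1 lie lowest in set1htz1.

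The arrays of set1htz1 lay wholly above or wholly below those of set1 for 1002 genes (18.3% of those tested). Among the called genes this held for 334 of the 483 higher and 402 of the 542 lower genes. Computed separately by dye, the difference had the same sign in both orientations for 482 of the 483 higher and 539 of the 542 lower genes. The exceptions include the ATP synthase gene ATP2, whose difference was 1.86 with the mutant in Cy5 and -0.05 with the mutant in Cy3. Its call was lost without set1 array 1 or 3 or set1htz1 array 1, 2 or 3, with differences from 0.64 to 0.89 and adjusted p from 0.0887 to 0.165.

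**Figure D2:**
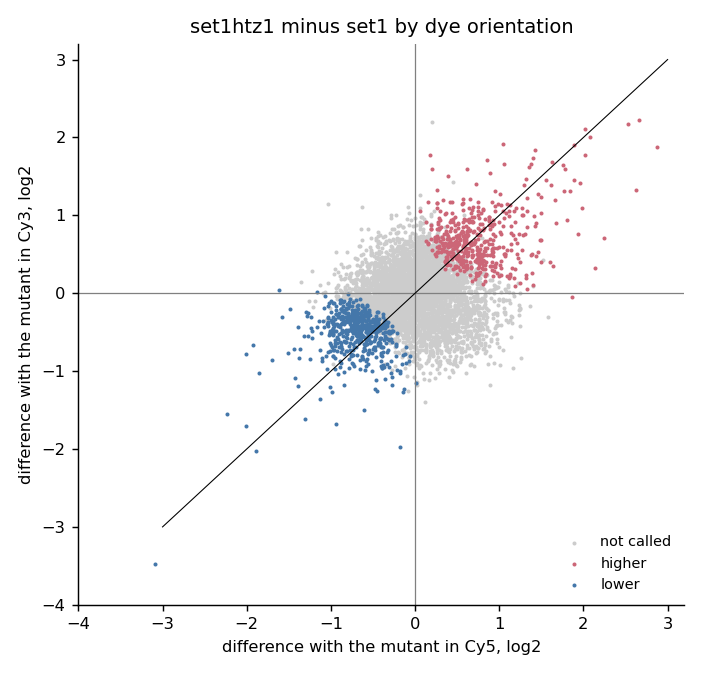
Difference of log2 ratios, set1htz1 minus set1, of every gene tested, from the arrays with the mutant in Cy5 (horizontal) and in Cy3 (vertical), with called genes coloured. Genes called higher fall in the upper right and genes called lower in the lower left in nearly every case; MET17, with most set1htz1 arrays at the lowest ratio, is beyond the axes.

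Enzymes that break down proline and arginine were among the most strongly raised genes. The list of proline and arginine breakdown, which also holds the amino acid deaminase and related genes, had 4 of 10 tested members higher and 1 lower. Its median difference was 0.39 beside -0.02 over all genes, of which 8.82% were higher and 9.90% lower. PUT1, the proline oxidase that takes the first step of proline use in mitochondria, read -0.06, 0.38, -0.15 and 0.40 in set1 and 2.21, 2.64, 2.65 and 2.48 in set1htz1. Its arrays did not overlap and stood about as far apart in both orientations, a difference of 2.35 ± 0.16 (adjusted p = 3.89e-08) or 5.11-fold. PUT2, which encodes the next enzyme of the path, differed by 0.83 ± 0.13 (adjusted p = 0.000268).

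The arginine enzymes moved the same way. CAR1, the arginase, read 0.31, 0.03, 0.24 and -0.34 in set1 and 1.76, 1.52, 1.63 and 1.84 in set1htz1, a difference of 1.63 ± 0.13 (adjusted p = 2.21e-07). CAR2, the ornithine transaminase of the same path, read -0.67, -0.97, -0.56 and -0.43 and 1.33, 1.29, 1.59 and 1.32, a difference of 2.04 ± 0.16 (adjusted p = 2.16e-07). For CAR2 the rise began below wild type, since all 4 set1 arrays were negative. CHA1, the serine and threonine deaminase, went the other way: it read -0.14, 0.16, -0.22 and 0.29 in set1 and -1.29, -1.32, -1.32 and -0.94 in set1htz1, with no overlap and a difference of -1.24 ± 0.12 (adjusted p = 1.46e-06).

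**Figure D3:**
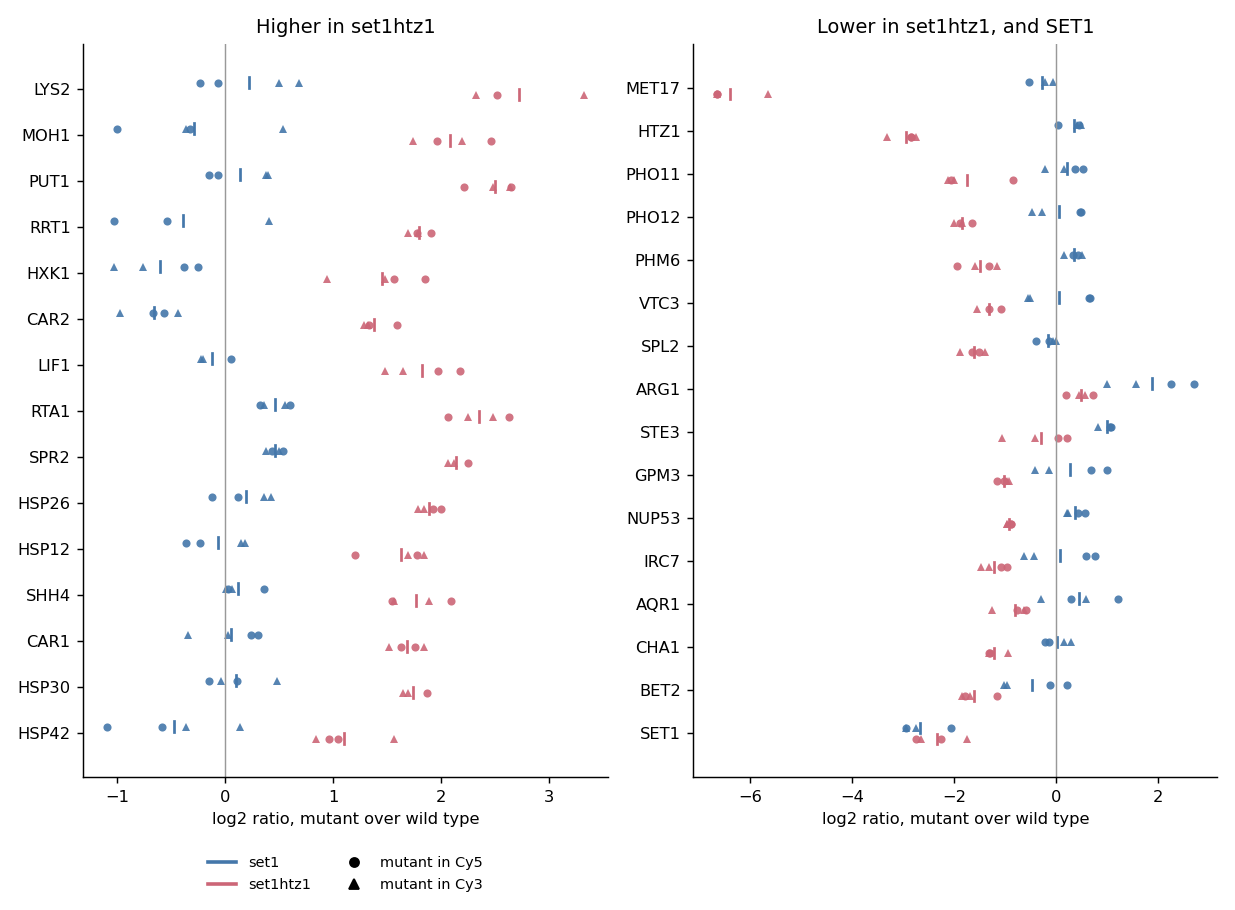
Log2 ratio of mutant over wild type on every array for the 15 genes with the largest and the 15 with the most negative difference among called genes without overlap, and for SET1. Blue marks set1 and red set1htz1, circles the mutant in Cy5 and triangles in Cy3, and the short lines are group means; HTZ1 separates by more than 3 log2 units, whereas SET1 is low in both groups.

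Genes of arginine synthesis did not share a direction. Of 12 tested, 3 were higher and 2 lower, with a median of -0.01, where 8.82% of all genes were higher and 9.90% lower. ARG1, the argininosuccinate synthetase, was well above wild type in set1, at 2.24, 1.0, 2.69 and 1.56, and nearer to it in set1htz1, at 0.19, 0.45, 0.72 and 0.56. The arrays did not overlap, and the difference was -1.39 ± 0.23 (adjusted p = 0.000537), with -2.01 in Cy5 and -0.78 in Cy3. ARG3, the ornithine carbamoyltransferase, was lower, with a difference of -0.60 ± 0.14 (adjusted p = 0.00661). The higher genes included ARG7, a mitochondrial enzyme of ornithine formation (0.87 ± 0.13, adjusted p = 0.000244) and the argininosuccinate lyase gene ARG4 (0.68 ± 0.15, adjusted p = 0.0037, with 0.45 in Cy5 and 0.92 in Cy3). ARG4 acts directly after ARG1, and the pair differed in opposite directions.

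Other amino acid genes were mixed, with 6 of 33 higher, 3 lower and a median of 0.15. Shares over all genes were 8.82% higher and 9.90% lower. SER3, a serine synthesis enzyme, differed by 1.06 ± 0.18 (adjusted p = 0.000537) and TRP5, the tryptophan synthase, by 0.84 ± 0.17 (adjusted p = 0.0021). HIS4, of histidine synthesis, was above wild type on every set1 array (0.57, 0.86, 0.85 and 0.97) and close to it in set1htz1 (-0.10, 0.16, -0.03 and 0.21), a difference of -0.75 ± 0.15 (adjusted p = 0.00207). Of 17 genes of nitrogen starvation 2 were higher and 2 lower (median 0.20). None of those 4 calls stayed without set1htz1 array 2, although the differences kept their direction. In that limma fit they were 0.57 for MEP2, 0.405 for DUR3, -0.44 for DAL3 and -0.43 for GZF3 (adjusted p 0.0507 to 0.0622).

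LYS2 and MET17 had the most extreme differences, and both are marker genes in many laboratory strains. LYS2, the aminoadipate reductase of lysine synthesis, read -0.23, 0.50, -0.06 and 0.69 in set1 and 2.32, 2.52 and 3.32 on arrays 2, 3 and 4 in set1htz1, a difference of 2.42 ± 0.22 (adjusted p = 1.46e-06). The other 7 tested genes of lysine synthesis had 1 call, LYS1 (0.48 ± 0.13, adjusted p = 0.016), with a median of 0.20. In the triple mutant, which also lacks HTZ1, LYS2 read -0.15, 0.26, 0.03 and 0.74, near the set1 arrays, whose highest value was 0.69. MET17, which makes homocysteine from sulfide, read -0.22, -0.54 and -0.06 on arrays 2, 3 and 4 in set1 and -6.64, -5.64, -6.64 and -6.64 in set1htz1. The lowest ratio the table holds is 0.01, or -6.64 as a log2 value, and 3 of the 4 set1htz1 arrays are at it, so no size is given for its fall. A marker difference between the strains and the loss of HTZ1 cannot be told apart for these genes. Among the other marker genes ADE1 was lower, with a difference of -0.54 ± 0.14 (adjusted p = 0.0133), and TRP1, HIS3, ADE2 and CAN1 differed by -0.13, 0.33, -0.33 and -0.04, with no call.

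The called genes of phosphate uptake, release and storage were all lower in set1htz1. In yeast the factor Pho4 activates such genes when phosphate is scarce: secreted acid phosphatases free phosphate, transporters such as Pho84 import it, and the VTC complex stores it as polyphosphate. Of 10 phosphatase genes 7 were lower and 0 higher (0 also at an unadjusted limma p under 0.05), with a median of -0.56. That list also holds phosphatases outside the response to scarce phosphate, GPP1 among them, so its counts are not those of that response alone. The 3 members not called had positive differences of up to 0.26, and 1 gene of the list had set1htz1 arrays wholly above the set1 arrays. With any 1 array left out 5 or 6 genes of the list were lower. For phosphate transport the counts were 4 of 9 lower and 0 higher (0 unadjusted), and for polyphosphate 3 of 8 lower and 0 higher (0 unadjusted), with medians of -0.45 and -0.51. Over all genes 9.90% were lower.

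The acid phosphatase genes PHO11 and PHO12 fell most. PHO12 read 0.46, -0.27, 0.49 and -0.47 in set1 and -1.64, -1.84, -1.89 and -2.0 in set1htz1, a difference of -1.90 ± 0.14 (adjusted p = 9.87e-08) or 3.72-fold. PHO11 read 0.37, -0.22, 0.52 and 0.15 and -0.84, -2.12, -2.06 and -2.0, a difference of -1.96 ± 0.20 (adjusted p = 3.57e-06). Neither gene overlapped between the groups, although array 1 of set1htz1 was nearer to the set1 arrays for PHO11. PHO11 and PHO12 are nearly identical copies in the ends of different chromosomes, so their spots may share signal and are not separate evidence. PHO5, the main repressible acid phosphatase, read -0.12, -0.47, 0.19 and -0.51 in set1 and -1.25, -0.92 and -1.40 on arrays 2, 3 and 4 in set1htz1, with no overlap and a difference of -0.91 ± 0.14 (adjusted p = 0.000438). GPP1, a glycerol phosphatase that was on the same list, differed by -0.76 ± 0.17 (adjusted p = 0.00433).

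The called transport and storage genes were lower too. SPL2, which restrains low-affinity phosphate uptake, read -0.14, 0.00, -0.40 and -0.07 in set1 and -1.51, -1.89, -1.64 and -1.40 in set1htz1, a difference of -1.46 ± 0.14 (adjusted p = 1.40e-06). Its 4 arrays in the triple mutant read 0.25, 0.01, -0.07 and -0.06, near the level of set1; the set1htz1 arrays are part of that second contrast too, and the contrast was not tested here. PHO84, the high-affinity phosphate transporter, read -0.09, -0.97, 0.37 and -0.62 in set1 and -0.89, -1.94, -0.84 and -2.06 in set1htz1, so set1 array 2 lay below set1htz1 arrays 1 and 3, which are of the opposite dye. Within each orientation every set1htz1 array was lower, and the fitted difference was -1.10 ± 0.19 (adjusted p = 0.000736). Only SPL2 and PHO84 of the 4 transport genes stayed called without set1 array 3, set1 array 4 or set1htz1 array 4. PHM6, a phosphate-regulated gene of unknown molecular role, read 0.32, 0.15, 0.43 and 0.50 and -1.94, -1.15, -1.32 and -1.6, a difference of -1.85 ± 0.16 (adjusted p = 9.58e-07). VTC3, a subunit of the polyphosphate synthesising complex, read 0.64, -0.56, 0.66 and -0.51 and -1.09, -1.32 and -1.56 on arrays 1, 3 and 4, a difference of -1.47 ± 0.22 (adjusted p = 0.000268), and VTC2, another subunit, differed by -0.61 ± 0.15 (adjusted p = 0.0103, with -0.92 in Cy5 and -0.30 in Cy3).

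Of the regulators of the pathway 1 was called, where 8.82% of all genes were higher and 9.90% lower. Of 8 signalling genes VIP1, an inositol polyphosphate kinase, was lower (-0.45 ± 0.12, adjusted p = 0.0162), and 0 were higher (0 unadjusted). Without set1 array 2 the VIP1 difference was -0.35 (adjusted p = 0.0505). The activator gene PHO4 differed by -0.01 ± 0.15, the cyclin gene PHO80 by 0.28 ± 0.14, the kinase gene PHO85 by -0.05 ± 0.12 and the inhibitor gene PHO81 by -0.43 ± 0.21, with no call. The galactose genes, the other textbook targets named above, had 1 call among 7: GCY1, a reductase gene (0.40 ± 0.14, adjusted p = 0.0486, with 0.14 in Cy5 and 0.67 in Cy3), whose call was lost when any single array other than set1 array 1 was left out (0.31 to 0.46, adjusted p 0.0503 to 0.156). GAL1, the galactokinase, was already above wild type in set1 (0.89, 0.81, 1.01 and 0.32) and read 1.10, 1.22, 1.10 and 1.09 in set1htz1, a difference of 0.37 ± 0.14 with no call (adjusted p = 0.0759). No galactose gene was called lower (0 unadjusted).

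Mating genes of both mating types changed, and most of the changes were rises. Haploid a cells express the a-factor genes MFA1 and MFA2, the receptor gene STE2 and the protease gene BAR1, and alpha cells express the alpha-factor genes and the receptor gene STE3. Of 6 a-specific genes 5 were higher and 0 lower (0 unadjusted), with a median of 0.94. Among all genes tested 8.82% were higher and 9.90% lower. AGA2, a subunit of the a-agglutinin that binds mating partners, read -0.49, -0.71, -0.23 and -0.40 in set1 and 0.71, 1.12, 1.32 and 1.09 in set1htz1. Its groups did not overlap, and the difference was 1.52 ± 0.16 (adjusted p = 1.66e-05). BAR1 read -0.18, -0.92, 0.06 and -0.58 and 0.32, 0.43, 0.69 and 0.50, a difference of 0.89 ± 0.17 (adjusted p = 0.00207, with 0.56 in Cy5 and 1.22 in Cy3), also without overlap.

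Several differences among the a-specific genes depended on dye. STE2 differed by 0.98 ± 0.28 (adjusted p = 0.0187), but by 0.17 in Cy5 and 1.78 in Cy3, and the call was lost without set1 array 2 (0.69, adjusted p = 0.0637), set1 array 4 (0.85, adjusted p = 0.0618) or set1htz1 array 2 (0.82, adjusted p = 0.0705). MFA1 differed by 0.95 ± 0.21 (adjusted p = 0.00662), with 1.39 in Cy5 and 0.26 in Cy3. MFA2 differed by 0.92 ± 0.26 (adjusted p = 0.0258), with 1.6 in Cy5 and 0.40 in Cy3. The MFA2 call was lost without set1 array 1 (0.80, adjusted p = 0.0686), set1 array 3 (0.80, adjusted p = 0.0583) or set1htz1 array 3 (0.67, adjusted p = 0.193). STE6, the a-factor exporter, differed by 0.42 ± 0.16, with no call. In the arrays with the mutant in Cy5 the STE2 and STE6 difference was small, and in those with the mutant in Cy3 the MFA1 and MFA2 difference was small.

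The alpha-specific genes split, with 2 of 5 higher and 2 lower, where 8.82% of all genes were higher and 9.90% lower. STE3, the a-factor receptor, read 1.07, 0.81, 1.05 and 1.06 in set1 and 0.04, -0.42, 0.21 and -1.06 in set1htz1, a fall of all 4 arrays with a difference of -1.30 ± 0.20 (adjusted p = 0.000438). MF(ALPHA)1, the main alpha-factor gene, read 1.06, 1.37 and 1.29 on arrays 1, 3 and 4 in set1 and 0.77, 0.30, 0.10 and 0.36 in set1htz1, a difference of -0.85 ± 0.17 (adjusted p = 0.00398). Both stood above wild type in set1 and moved towards it. AFB1, which binds a-factor, went from -0.89, -1.51, -0.94 and -1.25 in set1 to 0.40, -0.03, -0.20 and -0.47 in set1htz1, a difference of 1.07 ± 0.15 (adjusted p = 9.87e-05). MF(ALPHA)2, the minor alpha-factor gene, was higher by 0.76 ± 0.20 (adjusted p = 0.0144), with 1.32 in Cy5 and 0.19 in Cy3, and lost its call without set1htz1 array 3 (0.60, adjusted p = 0.0611). SAG1, the alpha-agglutinin, differed by 0.36 ± 0.18 and was not called (adjusted p = 0.162). For comparison, in the triple mutant STE3 read -5.06, -4.64, -4.64 and -5.06, AFB1 averaged -5.06 ± 0.00 (SD, n = 4) and SAG1 -4.96 ± 0.21 (SD, n = 4), levels far below those of either group compared here. Ratios this low are recorded in coarse steps, such as -5.06 and -4.64, so these SDs do not measure agreement between cultures. Ratios as low as those of the triple mutant need transcript in the wild type, and these are genes that alpha cells express. The a-specific genes are little expressed in alpha cells, and whether their spots were near background was not tested. Since whole cultures were measured, fewer cells with a transcript and less of it per cell cannot be told apart.

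**Figure D4:**
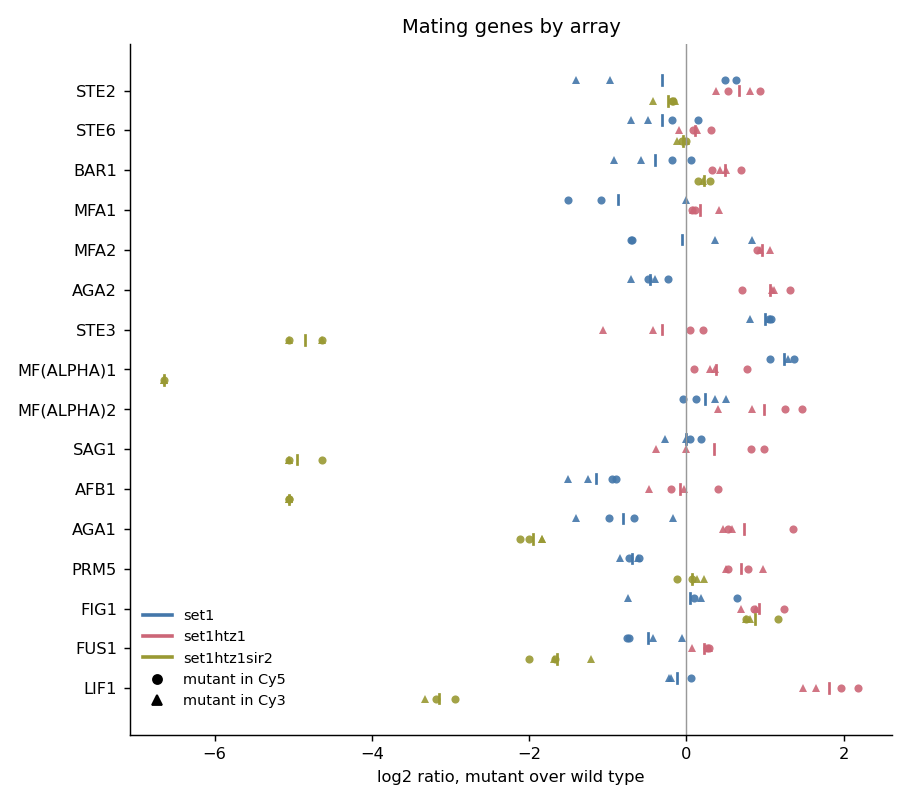
Log2 ratio of mutant over wild type on every array for mating genes and LIF1 in set1 (blue), set1htz1 (red) and set1htz1sir2 (olive), circles for the mutant in Cy5 and triangles for Cy3, short lines for group means. From set1 to set1htz1 the genes AGA2, AGA1 and PRM5 move up and STE3 moves down without overlap, whereas LIF1 averages -0.12 in set1, 1.82 in set1htz1 and -3.15 in set1htz1sir2.

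Called genes among those that pheromone induces were all higher. Of 16 tested 8 were higher and 0 lower (0 unadjusted), with a median of 0.46, where 8.82% of all genes were higher. AGA1, the anchor subunit of a-agglutinin, read -0.98, -1.40, -0.67 and -0.17 in set1 and 0.54, 0.58, 1.36 and 0.47 in set1htz1, a difference of 1.54 ± 0.25 (adjusted p = 0.000399). PRM5, a membrane protein induced by pheromone and by wall stress, read -0.60, -0.84, -0.72 and -0.61 and 0.79, 0.97, 0.53 and 0.51, a difference of 1.39 ± 0.13 (adjusted p = 1.04e-06). For both genes all set1 arrays were below wild type and all set1htz1 arrays above it. NFG1 differed by 0.93 ± 0.14 (adjusted p = 0.00022) and FIG1, a membrane protein of mating cells, by 0.87 ± 0.19 (adjusted p = 0.00403). By contrast, 10 genes of the pheromone signalling chain that haploid cells share had 0 calls in either direction in limma (1 higher and 0 lower unadjusted) and a median of 0.03.

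LIF1 was the only end-joining gene called, and it was higher. It encodes the partner of DNA ligase IV in the joining of broken DNA ends, read 0.06, -0.20 and -0.22 on arrays 1, 2 and 4 in set1 and 1.97, 1.65, 2.18 and 1.48 in set1htz1, and differed by 1.92 ± 0.19 (adjusted p = 5.98e-06) or 3.79-fold. The other 7 tested genes, DNL4, NEJ1, POL4, YKU70, YKU80, MRE11 and RAD50, differed by between -0.26 and 0.26 with no call, although 2 of them were lower at an unadjusted p under 0.05. In the triple mutant LIF1 read -2.94, -3.18 and -3.32 on arrays 1, 3 and 4, below every array of both groups compared here. DNL4, whose protein Lif1 binds, differed by 0.16 ± 0.13 (adjusted p = 0.435).

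Among heat shock, general stress and reserve carbohydrate genes, rises were the common call. Of 21 cytosolic and mitochondrial heat shock genes 9 were higher and 0 lower (0 unadjusted), with a median of 0.43. Of 26 general stress genes 10 were higher and 1 lower (median 0.40), and of 20 genes of storage sugars and hexose kinases 10 were higher and 1 lower (median 0.46). The last count of higher genes was 6 without set1htz1 array 3, and the lower general stress gene was lost without set1 array 1 or 4 or set1htz1 array 1 or 4. Over all genes 8.82% were higher. HSP12 is on both the first list and the second.

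HSP26, a small heat shock protein that holds unfolded proteins, read 0.12, 0.36, -0.12 and 0.43 in set1 and 2.0, 1.84, 1.93 and 1.79 in set1htz1, a difference of 1.69 ± 0.13 (adjusted p = 1.22e-07). HSP12, a membrane-protecting stress protein, read -0.23, 0.15, -0.36 and 0.19 and 1.78, 1.69, 1.20 and 1.84, a difference of 1.69 ± 0.23 (adjusted p = 0.000122). Arrays of both genes were close to wild type in set1, and none overlapped. HSP30, a plasma membrane stress protein, differed by 1.62 ± 0.17 (adjusted p = 7.84e-06) and HSP42, a second small heat shock protein, by 1.57 ± 0.20 (adjusted p = 5.20e-05). HSP42 began below wild type on 3 of the 4 set1 arrays, at -0.58, 0.14, -1.09 and -0.36, and read 1.05, 0.84, 0.96 and 1.56 in set1htz1. Further stress genes were HOR7 (1.35 ± 0.23, adjusted p = 0.000537, with 1.94 in Cy5 and 0.77 in Cy3), the vacuolar protease gene PRB1 (1.28 ± 0.17, adjusted p = 5.63e-05) and YGP1, a secreted glycoprotein of starved cells (0.94 ± 0.16, adjusted p = 0.000725).

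HXK1, the hexokinase made when glucose is short, led the sugar genes: it read -0.38, -1.03, -0.25 and -0.76 in set1 and 1.56, 1.48, 1.85 and 0.94 in set1htz1. All set1 arrays were below wild type and all set1htz1 arrays above it, a difference of 2.06 ± 0.18 (adjusted p = 4.37e-07) or 4.18-fold. The phosphoglucomutase gene PGM2 read -0.74, -0.49, -0.40 and -0.79 and 0.71, 0.54, 0.69 and 0.36, a difference of 1.18 ± 0.15 (adjusted p = 3.69e-05). GLK1, the glucokinase, differed by 1.17 ± 0.19 (adjusted p = 0.00054) and TSL1, a subunit of trehalose synthase, by 1.14 ± 0.15 (adjusted p = 5.71e-05). Among 19 hexose transporter genes and their regulators 4 were higher and 1 lower, with a median of 0.12 that was below 0 under quantile normalization, in the Cy3 arrays and without set1htz1 array 3. The lower call was lost when any single array other than set1 array 3 was left out. HXT4 differed by 1.48 ± 0.27 (adjusted p = 0.000999, with 2.24 in Cy5 and 0.71 in Cy3) and HXT7 by 1.26 ± 0.21 (adjusted p = 0.000498), both high-affinity glucose transporters, and HXT7 has a near copy, HXT6, with which its spot may share signal. Glycolysis itself had 3 of 19 higher and 1 lower (median 0.14), and its count of higher genes was 1 without set1htz1 array 4 and 5 without set1 array 3.

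The folding machinery of the endoplasmic reticulum was higher in part, with 4 of 19 genes higher, 1 lower and a median of 0.17. Shares over all genes were 8.82% higher and 9.90% lower. The lower call was lost without set1 array 1 or 2 or set1htz1 array 3. KAR2, its main Hsp70 chaperone, read 0.08, -0.51, 0.14 and -0.36 in set1 and 1.86, 0.81, 1.48 and 1.22 in set1htz1, a difference of 1.5 ± 0.17 (adjusted p = 7.28e-06). HAC1, the transcription factor of the unfolded protein response, read -0.42, -0.30, -0.27 and -1.12 and 0.26, 0.03, 0.29 and 0.43, a difference of 0.78 ± 0.18 (adjusted p = 0.0067). Neither gene overlapped. SEC61, the translocation channel, differed by 0.90 ± 0.17 (adjusted p = 0.00131) and ERO1, an oxidase of disulfide bond formation, by 0.62 ± 0.15 (adjusted p = 0.00734).

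Calls in the lists of the respiratory chain and its regulators were mostly rises, and those in the list of the mitochondrial ribosome were falls. For the cytochrome bc1 complex and cytochrome c 8 of 10 genes were higher and 0 lower (0 unadjusted), with a median of 0.69. ATP synthase and its inhibitors had 6 of 10 higher and 0 lower (0 unadjusted) with a median of 0.71, and 3 higher without set1 array 1. Cytochrome oxidase and its assembly factors had 3 of 10 higher and 0 lower (0 unadjusted) with a median of 0.35, and 1 higher without set1htz1 array 2 or array 3. The tricarboxylic acid and glyoxylate cycles and linked enzymes had 9 of 31 higher and 0 lower (1 unadjusted) with a median of 0.33, and 5 higher without set1htz1 array 2. Over all genes 8.82% were higher.

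QCR9, a small bc1 subunit, read 0.08, 0.01, -0.30 and -0.43 in set1 and 0.91, 1.06, 1.10 and 0.62 in set1htz1, a difference of 1.08 ± 0.15 (adjusted p = 7.12e-05). COR1, a core subunit of the same complex, read 0.14, -0.14, 0.28 and 0.14 and 0.89, 1.06, 1.19 and 0.84, a difference of 0.89 ± 0.17 (adjusted p = 0.00153). Both were near wild type in set1, and their groups did not overlap. ATP1, the alpha subunit of ATP synthase, was above wild type already in set1, at 1.32, 0.86, 1.58 and 1.0, and read 2.84, 2.50 and 2.84 on arrays 2, 3 and 4 in set1htz1, a difference of 1.54 ± 0.18 (adjusted p = 5.71e-05). INH1, the inhibitor of the same enzyme, read 0.03, 0.84, -0.42 and 0.81 and 1.74, 1.79, 1.83 and 2.06; the difference was 1.54 ± 0.22 (adjusted p = 0.00013), with 1.98 in Cy5 and 1.10 in Cy3. ATP17, another subunit, differed by 1.0 ± 0.15 (adjusted p = 0.000148).

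HAP4, the activating subunit of the factor that switches on respiratory genes, read -0.60, -0.56, -0.76 and -0.32 in set1 and 0.41, 0.43, 0.60 and 0.52 in set1htz1. Every set1 array was below wild type and every set1htz1 array above it, a difference of 1.05 ± 0.17 (adjusted p = 0.000438). Its list of regulators and NADH dehydrogenases had 4 of 9 higher and 1 lower (median 0.39). Those counts were 2 higher without set1 array 4 or without set1htz1 array 2, 3 or 4, and 0 lower without set1 array 2 or any 1 set1htz1 array. In the succinate dehydrogenase complex SDH4 differed by 0.94 ± 0.19 (adjusted p = 0.00216) and SDH1 by 0.82 ± 0.17 (adjusted p = 0.00305). SHH4, which encodes a protein like Sdh4, was among the largest rises: it read 0.36, 0.07, 0.03 and 0.01 in set1 and 1.55, 1.89, 2.09 and 1.56 in set1htz1, a difference of 1.66 ± 0.16 (adjusted p = 2.22e-06).

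Of 61 mitochondrial ribosomal protein genes 14 were lower and 0 higher (3 unadjusted), with a median of -0.26. Without set1htz1 array 3 the count was 9, and over all genes 9.90% were lower. MRP13 read -0.76, -0.12 and -0.38 on arrays 2, 3 and 4 in set1 and -0.81, -1.32, -1.64 and -1.56 in set1htz1, a difference of -0.94 ± 0.19 (adjusted p = 0.00266). MRPL32 differed by -0.81 ± 0.16 (adjusted p = 0.00209) and MRPL9 by -0.74 ± 0.11 (adjusted p = 0.000226). The groups did not overlap for any of these genes.

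Some genes for building ribosomes and for transcription were lower. Of 95 ribosome biogenesis factors 24 were lower and 0 higher (1 unadjusted), with a median of -0.29, and 12 were lower without set1htz1 array 3. Over all genes 9.90% were lower. DIM1, a dimethylase of small subunit rRNA, read 1.02, 0.04, 1.68 and -0.03 in set1 and -0.18, -0.30, -0.27 and -0.29 in set1htz1, a difference of -0.94 ± 0.21 (adjusted p = 0.0049). The set1 level of DIM1 followed the dye, high in Cy5 and near wild type in Cy3, so its difference was -1.57 in Cy5 and -0.30 in Cy3. ENP2, which is needed for small subunit assembly, differed by -0.88 ± 0.14 (adjusted p = 0.000512), and SOF1, of the same pathway, by -0.84 ± 0.16 (adjusted p = 0.00152), with -1.24 in Cy5 and -0.45 in Cy3.

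Subunits of RNA polymerases I, II and III had 10 of 31 lower and 2 higher, with a median of -0.31 and 6 lower without set1 array 1. The higher calls were lost without set1htz1 array 2. RPB3, shared by no other polymerase than II, read 0.08, -0.23, 0.39 and -0.18 in set1 and -0.51, -0.74, -1.03 and -0.94 in set1htz1, a difference of -0.82 ± 0.15 (adjusted p = 0.00122). RPB9, another polymerase II subunit, differed by -0.86 ± 0.17 (adjusted p = 0.00399, with -0.47 in Cy5 and -1.11 in Cy3), and the polymerase III subunit genes RPC37 and RPC31 by -0.81 ± 0.20 (adjusted p = 0.00812, with -1.11 in Cy5 and -0.52 in Cy3) and -0.69 ± 0.15 (adjusted p = 0.00346, with -0.96 in Cy5 and -0.42 in Cy3). The proteins of the cytosolic ribosome itself showed little: 1 of 72 large subunit genes was higher and 0 lower (1 unadjusted, median -0.02), and of 54 small subunit genes 1 was lower and 0 higher (0 unadjusted, median -0.11). The large subunit call was lost without set1 array 1 or set1htz1 array 1 or 3, and the small subunit call without set1htz1 array 2 or 3.

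In the lists of the SWR1, INO80 and RSC complexes, the chaperones of H2A.Z included, all called genes but 1 were lower. Silencing genes, described further below, were called in both directions, with 2 of 16 higher and 2 lower. Over all genes 9.90% were lower. SWR1 and the chaperones of H2A.Z had 5 of 14 lower and 0 higher (0 unadjusted), with a median of -0.22. For 1 of the 14 genes all set1htz1 arrays lay below all set1 arrays, against 548 of 5477 over all genes. The count of lower genes was 1 without set1htz1 array 3. ARP6, a subunit that SWR1 needs to bind H2A.Z, was the member called in each of these fits: it read 0.29, 0.04, 0.66 and 0.25 in set1 and -0.47, -0.38, -0.54 and -0.30 in set1htz1, a difference of -0.73 ± 0.14 (adjusted p = 0.00131, with -0.98 in Cy5 and -0.48 in Cy3). The INO80 complex, a related remodeller, had 1 of 11 lower and 0 higher (1 unadjusted, median -0.03) in its list. Subunits that it shares with SWR1 were counted under SWR1 alone. ARP4 is such a subunit and was called lower there (-0.50, limma adjusted p = 0.0207, with -0.815 in Cy5 and -0.185 in Cy3). The ARP4 call was lost without set1 array 3 or set1htz1 array 3. The lower member of the INO80 list was TAF14, a subunit of several complexes (-0.65 ± 0.17, adjusted p = 0.0137). Without set1htz1 array 3 its difference was -0.51 (adjusted p = 0.0614). The RSC complex, an essential remodeller of promoters, had 6 of 12 lower and 1 higher, with a median of -0.40 and 2 lower without set1htz1 array 3. The higher call was lost without set1 array 3 or 4 or set1htz1 array 2, 3 or 4. RSC58 was tightly grouped, at 0.01, -0.10, 0.00 and 0.01 in set1 and -0.79, -0.94, -0.97 and -0.94 in set1htz1, a difference of -0.89 ± 0.12 (adjusted p = 5.71e-05). RSC8 differed by -0.85 ± 0.17 (adjusted p = 0.00224), with -0.45 in Cy5 and -1.26 in Cy3.

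Partners of Set1 were included because both strains lack the enzyme. Among all genes tested 9.90% were lower. All 4 other COMPASS subunits tested had negative differences and 2 were called lower: SWD2 (-0.48 ± 0.12, adjusted p = 0.0084) and SWD3 (-0.58 ± 0.20, adjusted p = 0.0469). SWD3 lost its call without set1 array 1, 2 or 4 or set1htz1 array 1 or 2, with differences from -0.61 to -0.36 and adjusted p from 0.0629 to 0.176. SWD1 and SPP1 differed by -0.42 ± 0.18 and -0.33 ± 0.13, with no call, and 0 were higher (0 unadjusted). Upstream of Set1, Rad6 and Bre1 attach ubiquitin to histone H2B and the PAF1 complex brings these enzymes to transcribing polymerase. Of 7 such genes 4 were lower and 0 higher (0 unadjusted), with a median of -0.46. CTR9, of the PAF1 complex, read -0.22, 0.89, -0.54 and 0.58 in set1 and -1.06, -0.81, -0.92 and -0.71 in set1htz1, a difference of -1.05 ± 0.23 (adjusted p = 0.00453), with -0.61 in Cy5 and -1.5 in Cy3. CDC73, of the same complex, differed by -0.66 ± 0.15 (adjusted p = 0.00611, with -0.93 in Cy5 and -0.40 in Cy3) and RAD6 by -0.49 ± 0.13 (adjusted p = 0.0135). LGE1, PAF1 and LEO1 differed by 0.27, 0.19 and -0.31, with no call.

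**Figure D5:**
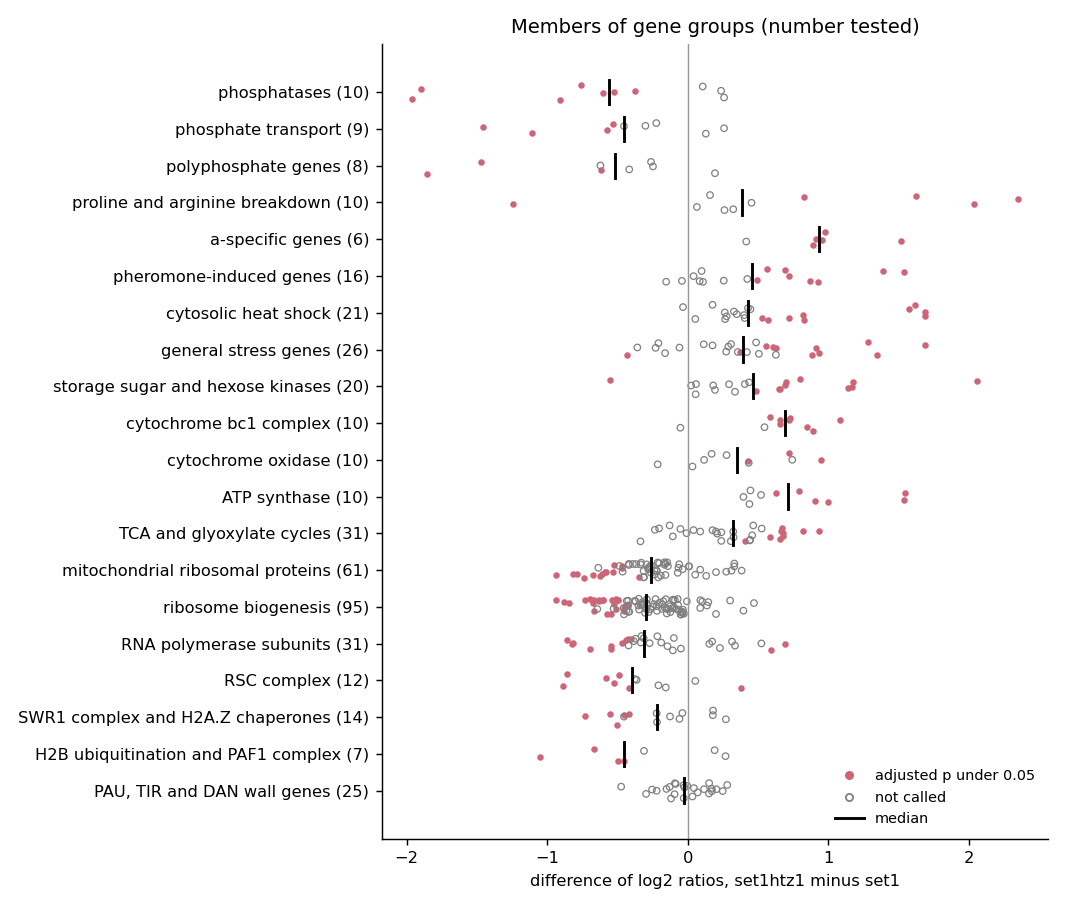
Difference of log2 ratios, set1htz1 minus set1, of each tested member of 20 gene groups, filled red where the adjusted p is under 0.05 and open where it is not, with the group median as a black line and the number tested in brackets. The medians of the phosphate groups lie left of 0, with some members right of it. Those of the bc1, ATP synthase and a-specific groups lie right of 0, and the median over all genes is -0.02.

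Genes of cofactor synthesis included a few large differences. Shares over all genes were 8.82% higher and 9.90% lower. BNA1, an enzyme of NAD synthesis from tryptophan, read -0.03, 0.11, 0.01 and -0.10 in set1 and 1.40, 1.40, 1.5 and 1.15 in set1htz1, a difference of 1.36 ± 0.14 (adjusted p = 3.19e-06). BNA2, which starts the same path, was above wild type already in set1, at 1.75, 1.94, 2.20 and 1.74, and higher in set1htz1, at 2.77, 2.84, 2.39 and 2.56, a difference of 0.73 ± 0.15 (adjusted p = 0.00274). Of 13 NAD genes 3 were higher and 0 lower (1 unadjusted; median 0.07), the third being PNC1, the nicotinamidase (0.82 ± 0.19, adjusted p = 0.00695, with 1.25 in Cy5 and 0.40 in Cy3). Thiamine genes had 4 of 14 higher and 3 lower (median 0.28). Those counts were 1 lower without set1 array 3 or 4 or set1htz1 array 4, and 7 higher without set1 array 3. THI12, of thiamine precursor synthesis, read 1.34, 0.89, 1.34 and 0.92 in set1 and 2.63, 2.48, 2.75 and 2.56 in set1htz1, a difference of 1.48 ± 0.12 (adjusted p = 2.21e-07). THI11 and THI5 differed by 1.46 ± 0.19 (adjusted p = 7.58e-05) and 1.34 ± 0.14 (adjusted p = 4.20e-06), but the 3 genes are near-identical copies whose spots may share signal.

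Sulfur assimilation had 5 of 22 higher and 3 lower (median 0.20), and 1 lower without set1 array 3 or set1htz1 array 3. Among all genes tested 8.82% were higher and 9.90% lower. The sulfate permease gene SUL1 read -0.14, -0.09, -0.14 and 0.11 in set1 and 0.54, 1.01 and 1.18 on arrays 1, 3 and 4 in set1htz1, a difference of 0.98 ± 0.21 (adjusted p = 0.00436), and SUL2, the second permease, differed by 0.67 ± 0.13 (adjusted p = 0.00214). MET17, described above, belongs to the same pathway.

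Of genes of DNA synthesis, 3 of 11 of ribonucleotide reductase and its checkpoint were higher and 0 lower (1 unadjusted), with a median of 0.17. The share higher over all genes was 8.82%. DIF1, which controls where the small subunit of the reductase is held, read 0.12, -0.14, 0.14 and -0.23 in set1 and 0.73, 0.94, 1.14 and 0.86 in set1htz1, a difference of 0.94 ± 0.14 (adjusted p = 0.000164). RNR2, a small subunit gene, differed by 0.69 ± 0.16 (adjusted p = 0.00664, with 0.43 in Cy5 and 0.94 in Cy3).

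Some of the largest differences belonged to no gene list. MOH1, a gene of stationary phase cells, read -0.32, 0.54, -1.0 and -0.36 in set1 and 1.96, 2.19, 2.46 and 1.74 in set1htz1, a difference of 2.37 ± 0.23 (adjusted p = 1.40e-06). The neighbouring reading frame RRT1 read -0.54, -1.03 and 0.41 on arrays 1, 3 and 4 and 1.78, 1.69, 1.91 and 1.79, a difference of 2.12 ± 0.22 (adjusted p = 1.05e-05). RRT1 and MOH1 are next to each other, and since their probes are not known here, shared signal between their spots cannot be told apart from 2 changes. RTA1, which confers resistance to aminocholesterol, read 0.60, 0.56, 0.32 and 0.36 and 2.06, 2.25, 2.63 and 2.48, a difference of 1.90 ± 0.14 (adjusted p = 4.54e-08), nearly equal in both orientations at 1.89 and 1.91. SPR2, a gene named for sporulation, was steady within each group, at 0.54, 0.50, 0.44 and 0.38 and 2.12, 2.25 and 2.06 on arrays 2, 3 and 4, a difference of 1.69 ± 0.14 (adjusted p = 1.45e-05).

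On the lower side NUP53, a nuclear pore protein, was similar on the arrays of a group: it read 0.42, 0.21, 0.57 and 0.24 in set1 and -0.89, -0.97, -0.89 and -0.97 in set1htz1, a difference of -1.29 ± 0.14 (adjusted p = 4.76e-06). IRC7, a desulfhydrase of cysteine, read 0.59, -0.43, 0.75 and -0.64 and -1.09, -1.32, -0.97 and -1.47, a difference of -1.28 ± 0.21 (adjusted p = 0.000438). AQR1, an exporter of the plasma membrane, differed by -1.25 ± 0.21 (adjusted p = 0.000567), from 0.28, -0.30, 1.21 and 0.58 to -0.76, -0.64, -0.60 and -1.25. The set1 arrays of IRC7 were positive in Cy5 and negative in Cy3, but both lay above all set1htz1 arrays. GPM3, a homologue of phosphoglycerate mutase, differed by -1.29 ± 0.19 (adjusted p = 0.000167), with -1.93 in Cy5 and -0.67 in Cy3. BET2, a subunit of the enzyme that attaches geranylgeranyl groups to Rab proteins, was below wild type on 3 of the 4 set1 arrays and lower still in set1htz1, with a difference of -1.14 ± 0.19 (adjusted p = 0.000513).

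The position of called genes along the chromosomes was described because H2A.Z is known for the borders of silent chromatin. Genes were ranked from the chromosome end by their systematic names, and for the 5 outermost names of an arm 14 of 139 tested genes were higher (10.1%) and 9 lower (6.47%). Ranks 6 to 10 had 6.9% higher and 7.59% lower of 145 genes, and ranks 11 to 20 had 9.83% and 9.15% of 295. For the 4867 genes further in, the shares were 8.75% and 10.1%. These shares lie near those over all genes, 8.82% and 9.90%, and the median differences in the 4 classes lay between -0.02 and 0.09. The share higher among the 5 outermost was 2.88% without set1htz1 array 3 and 6.47% without set1 array 1 or set1 array 3. For the genes beyond rank 20 the shares higher were 5.79% without set1htz1 array 3, 7.01% without set1 array 1 and 8.34% without set1 array 3.

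Called genes had called neighbours somewhat more often than other genes did. The tested genes were put in the order of their systematic names, so untested reading frames were passed over. Of 479 higher genes in that order 119 had a higher gene next to them (24.84%), against 784 of 4967 other genes (15.78%). For lower genes the numbers were 129 of 540 (23.89%) and 886 of 4906 (18.06%). No test was made of these shares, since neighbouring spots and overlapping reading frames are not independent. There were 6 runs of at least 3 higher genes in a row in that order and 13 of lower genes, none longer than 4. One run joined AFB1, YLR041W and NFG1, so that 2 of the mating genes above are next to each other but for 1 reading frame. The genes beside the deleted ones, 2 on each side of HTZ1 and SET1, gave 1 call among 7 tested: LSM12, with -0.55 ± 0.16 (adjusted p = 0.0234, with -0.97 in Cy5 and -0.12 in Cy3). Its call was lost without set1 array 1 or 3 or set1htz1 array 1 or 3, with differences from -0.50 to -0.43 and adjusted p from 0.0649 to 0.101.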

How the data were processed

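Per the deposited description, GenePix 3.0 quantified the spots, dim spots and those with a regression R2 below 0.75 were discarded, and ratios were normalized to total signal per sample, so a change common to all transcripts is not measured. The deposited table holds log2 ratios, mutant over wild type, for each entry and array; the lowest ratio is 0.01. Its 6282 entries, 296 with a prefix z of meaning not given in the sources used here, were averaged per reading frame to 6074 genes. A RefSeq gene table (R64) served for names (5539 matched), the neighbours of the deleted genes and coding length only. The sources used here give no probe sequence or genome build.

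The fit used limma 3.58.1 (R 4.3.3) on all 16 arrays with 4 groups and a shared dye term, without further normalization. Genes with at least 3 values in both groups were tested (5477), with Benjamini-Hochberg adjusted p under 0.05 as the call. Errors after ± are standard errors unless SD is named. The procedure was tested on simulated data. Alternatives were filters, scalings, arrays and dye terms in the fit, a replicate block, single dyes and each array left out. Named genes are the deleted genes, the 15 largest and 15 most negative called differences without overlap, up to 4 called members per list and any member of lists of up to 8; PUT2, ARG3 and SIR2 were added after their values were seen. Some called genes are not reported here. Members and lists were chosen with earlier results of these data known, so lists are described by counts and medians with no test. Neighbours of the deleted genes are the 2 nearest coding genes on each side in RefSeq order.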

Additional observations from a re-analysis of the deposited data

Results flagged for a closer look

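Among 55 groups of 4 arrays, for 31 genes, 6 held 1 array that stood apart from the other 3, by the gap to its neighbour against the whole range. Chance alone gives about 5% of groups such an array. HTZ1 read 0.04 on set1 array 3 and 0.41 to 0.48 on the others, all far above set1htz1. CAR2 read 1.59 on set1htz1 array 3 beside 1.29 to 1.33, so its rise is seen on the others too. MET17 read -5.64 on set1htz1 array 2, where the other arrays were at the lowest ratio, -6.64. Ratios this low are recorded in coarse steps, so that gap is not a measure of spread. PHO11 read -0.84 on set1htz1 array 1 beside -2.12 to -2.0, and its near copy PHO12 read -1.64 on that array. STE3 read 0.81 on set1 array 2 beside 1.05 to 1.07. CHA1 read -0.94 on set1htz1 array 4 beside -1.32 to -1.29. Each of these genes kept its call without the array concerned. What sets these arrays apart was not tested.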

How the results depend on the processing

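The count of 1025 called genes (483 higher, 542 lower) lay between 744 and 1280 under the other filters, arrays, dye terms, single dyes, median centring and robust moderation, and was 611 (277 higher, 334 lower) with quantile normalization. Leaving out 1 array gave 670 to 1030 calls (315 to 471 higher, 355 to 559 lower), the lowest without set1htz1 array 3. Of these calls 59.02% were also made with quantile normalization, 50.44% from the Cy5 arrays alone and 45.85% from the Cy3 arrays alone; the cause was not tested. The share of higher genes among calls stayed between 44.99% and 51.25%. Of 169 called genes chosen by the naming rule or added to it 73 kept direction and call in every alternative that gave them a value (up to 22), and ATP2 alone turned sign (-0.05 with the Cy3 arrays). Same-numbered arrays of the groups deviated together from their group means (r = 0.2324, 0.1869, 0.4682 and 0.2171), but they share a dye. After removing dye, r was 0.2226 for arrays 1 and 3 and -0.3113 for arrays 2 and 4. A group has only 2 arrays per dye, so those values repeat by construction and cannot decide whether the numbers pair the cultures. The main fit assumed no pairing. A replicate block gave 927 calls. Requiring values on at least 2 arrays changed nothing, since no gene had 1 or 2. Several gene group medians near 0 turned sign in the Cy5 or Cy3 arrays alone, as did the larger medians of nitrogen starvation (-0.13 in Cy5), ergosterol (-0.04 in Cy5) and alpha-specific genes (-0.06 in Cy3). Signal over background was not used here.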

Other observations

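Genes of histones and of silent chromatin were called in both directions, where 8.82% of all genes were higher and 9.90% lower. Of 9 histone genes 1 was lower and 0 higher (0 at an unadjusted limma p under 0.05): HHF2, a histone H4 gene, with a difference of -0.58 ± 0.16 (adjusted p = 0.0158), lost without set1 array 1 (-0.52, adjusted p = 0.0528), set1htz1 array 1 (-0.52, adjusted p = 0.054) or set1htz1 array 2 (-0.48, adjusted p = 0.0626). Of 16 silencing genes 2 were higher and 2 lower, and the median was 0.01. The count of lower silencing genes was 0 without set1 array 3 or 4 or set1htz1 array 1 or 4. HST2, a relative of SIR2, read 0.01, 0.03, 0.12 and -0.07 in set1 and 0.68, 1.03, 0.81 and 0.76 in set1htz1, a difference of 0.80 ± 0.15 (adjusted p = 0.00107). ASF1, a histone chaperone, differed by 0.49 ± 0.13 (adjusted p = 0.012). SIR2 itself, the deacetylase of silent chromatin, differed by 0.03 ± 0.15 with no call (adjusted p = 0.914). The 2 tested Ty retrotransposon entries had 1 higher and 0 lower (0 unadjusted), and the call was lost without set1 array 2 or 3 or set1htz1 array 1 or 4.

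The gene families of the chromosome ends did not move as one. Of 25 PAU, TIR and DAN wall genes 0 were called in either direction in limma (0 higher and 2 lower unadjusted), with a median of -0.02. Of 9 COS genes 5 were higher and 1 lower, with a median of 0.45, but 0 were higher without set1htz1 array 3. COS10, the lower member, differed by -0.77 ± 0.20 (adjusted p = 0.0128), with -1.27 in Cy5 and -0.26 in Cy3. Members of both families are close copies of each other, so their spots may share signal.

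Lipid, iron, cell cycle and proteasome genes were counted against the same shares. Ergosterol synthesis had 4 of 24 higher and 0 lower (0 unadjusted), led by ERG28, a scaffold of the pathway (0.77 ± 0.15, adjusted p = 0.00159). Its median was 0.20, with -0.04 in Cy5 and 0.41 in Cy3, and 1 gene was higher without set1 array 1. The iron regulon had 2 of 21 higher and 1 lower (median 0.06, with -0.21 in Cy5 and 0.21 in Cy3), and its lower call was lost without set1htz1 array 1. Cyclins and cell cycle regulators had 2 of 25 higher and 3 lower (median -0.04), with 1 lower without set1htz1 array 3 and 0 higher without set1 array 1 or set1htz1 array 1 or 2. Tubulin and kinetochore genes had 4 of 18 lower and 0 higher (0 unadjusted; median -0.11), and 2 lower without set1 array 1 or set1htz1 array 1, 2 or 3. CIN4, which acts in the folding of tubulin, read -0.17, 0.32, 0.11 and 0.30 in set1 and -0.74, -0.81, -1.0 and -0.92 in set1htz1, a difference of -1.01 ± 0.14 (adjusted p = 6.58e-05). Of 33 proteasome genes 0 were called in either direction in limma (3 higher and 4 lower unadjusted).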
